A study of Mus musculus with 6 samples.

Results

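The neutrophil granule genes are 10 genes chosen by symbol: Mpo, Elane, Prtn3, Ctsg, Ms4a3, Ltf, Camp, Ngp, S100a8 and S100a9. All 10 were found, out of 17060 genes listed in the 6 cultures, and all 10 passed the filter on low counts that left 12306 genes to be tested. The cells were lineage-negative bone marrow cells of wild-type mice, that is, marrow depleted of cells that carry mature lineage markers. They were grown for 48 hours in an erythropoietin (EPO) induction culture with either the vehicle DMSO or NUP-17d, a small molecule that the study selected, as an analog of a screening hit, against the pleckstrin-family protein Plek2. Each condition had 3 cultures, the EPO culture was common to both, and no untreated cells from before the culture were measured here. The cultures were not sorted again before RNA extraction, and the labels do not say whether same-numbered cultures came from 1 mouse or from pooled mice, so p-values measure only the spread between these cultures.

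Neutrophils store antimicrobial proteins in granules that are filled in sequence as the cell matures. Primary (azurophil) granules are filled at the promyelocyte stage with myeloperoxidase and the serine proteases, secondary (specific) granules are filled later, at the myelocyte and metamyelocyte stages, with lactoferrin and cathelicidin, and tertiary granules last. C/EBPα, PU.1 and MYB act early in this program and C/EBPε acts on the secondary granule genes. Not all of the 10 genes encode granule contents in the strict sense. Ms4a3 encodes a membrane protein made in granulocyte-monocyte progenitors at the time of the primary granules, and S100a8 and S100a9 encode the subunits of calprotectin, a calcium-binding complex of the neutrophil cytosol.

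The expected counts, which are estimates of the reads that came from each gene, summed to between 20076409 and 20419018 per culture. Hemoglobin genes took 18.3% to 20.3% of them in the DMSO cultures and 11.8% to 13.1% in the NUP-17d cultures. Values are therefore given as CPM, counts set to a common library size, after TMM scaling, which corrects for library composition. Scaling by library totals alone moved the median log2 fold change of all tested genes from 0.014 to 0.28, so a change under that scaling is to be read against a shift of 0.27. The label of the cells as erythroblasts was checked on 14 erythroblast markers, which were all detected and together made up 220093 to 254159 CPM with DMSO and 121747 to 136178 CPM with NUP-17d. All 14 fell with NUP-17d, and 12 of the 14 also fell under library totals. Plek2 itself was 0.40 lower on the log2 scale.

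The granule genes were a small but well measured part of these cultures. Together they made up 3984 to 4154 CPM with DMSO and 4052 to 4334 CPM with NUP-17d, and these ranges overlap. As a share of the deposited counts, without the correction for composition, they took 0.368% to 0.371% with DMSO and 0.448% to 0.469% with NUP-17d. Each gene had between 731 and 40069 counts in every culture, and the counts of all 10 were whole numbers in all cultures, so no fractional reads had been assigned to them. In bulk RNA a change in the number of cells of a type and a change in the RNA per cell cannot be told apart.

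With NUP-17d, Ctsg and Ngp rose, Ms4a3 and Camp fell, and the other 6 genes did not pass the test. The fall of Ms4a3, to 0.720 times its DMSO level, was the widest move of the group, and the other 3 changes were each under 0.2 on the log2 scale. The called genes were thus 4 of 10, beside 35.3% of all tested genes, and a share so near the background is not a result about these genes as a group. In single directions they were 2 of 10 higher, beside 16.4% of all tested genes, and 2 of 10 lower, beside 18.9%. The CPM of the groups did not overlap for the same 4 of 10 genes, beside 46.0% of all tested genes. The median log2 fold change of the 10 genes was 0.0066, beside 0.014 for all tested genes.

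**Figure D1:**
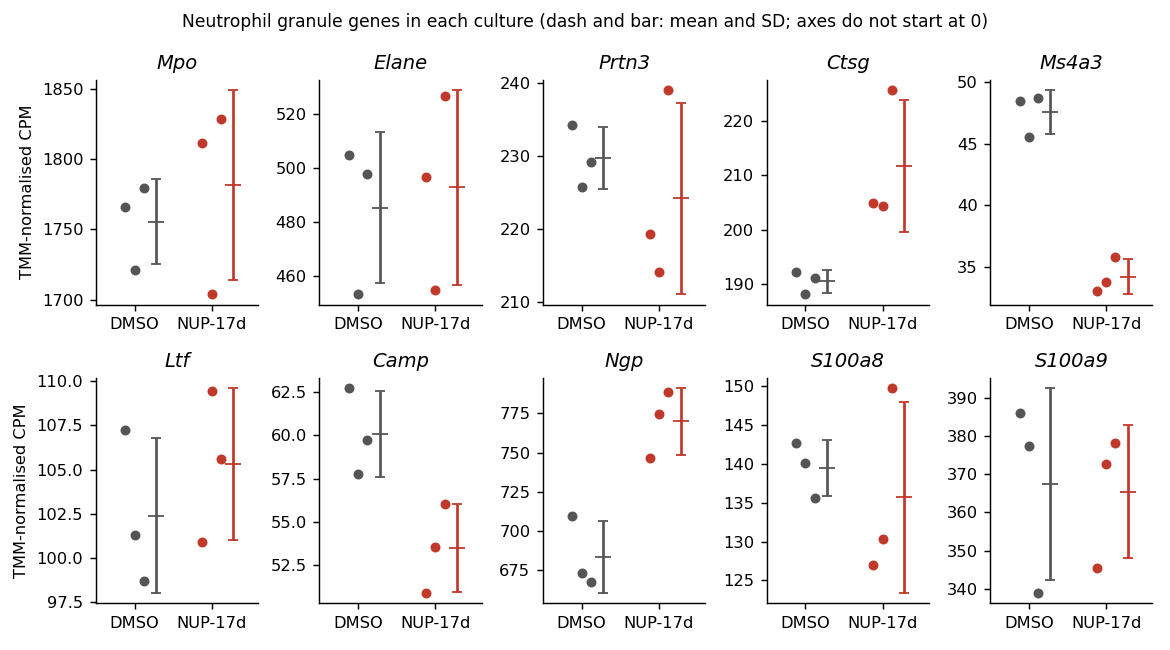
TMM-normalised CPM of each granule gene (vertical axes, linear and not starting at 0) in the 3 DMSO and 3 NUP-17d cultures, where points are cultures and the dash with its bar is the mean and SD. The groups separate for Ctsg, Ms4a3, Camp and Ngp and overlap for the other 6 genes.

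Among the primary granule genes, Mpo, which encodes myeloperoxidase, the enzyme that makes hypochlorous acid, was the largest single contributor. It was at 1766, 1721 and 1779 CPM in DMSO cultures 1, 2 and 3 and at 1812, 1704 and 1829 CPM in NUP-17d cultures 1, 2 and 3. The NUP-17d cultures held both the lowest and the highest of the 6 values, so the groups overlapped. The log2 fold change was 0.021 (95% CI -0.055 to 0.097), with an adjusted p of 0.695 in edgeR's quasi-likelihood test. Mpo made up 42.1% to 44.0% of the counts of the 10 genes in every culture.

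Elane encodes neutrophil elastase and Prtn3 encodes proteinase 3, a related serine protease. Elane was at 504.7, 453.3 and 497.6 CPM with DMSO and at 496.7, 454.9 and 526.5 CPM with NUP-17d. Prtn3 was at 234.2, 225.7 and 229.1 CPM with DMSO and at 219.3, 214.1 and 239.0 CPM with NUP-17d. In each gene the groups overlapped and culture 2 was the lowest of its group. The log2 fold change of Elane was 0.022 (95% CI -0.070 to 0.12) and that of Prtn3 was -0.035 (95% CI -0.12 to 0.045), with adjusted p of 0.738 and 0.519 in edgeR.

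Ctsg, which encodes cathepsin G, the third serine protease of the primary granule, did rise. It was at 192.3, 188.2 and 191.1 CPM with DMSO and at 205.0, 204.4 and 225.6 CPM with NUP-17d. All NUP-17d cultures lay above all DMSO cultures, and NUP-17d culture 3 stood above the other NUP-17d cultures. The log2 fold change was 0.15 (SE 0.039, edgeR adjusted p = 0.00295). Without that culture it was 0.10 and still passed the test.

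Ms4a3 went the other way. It was at 48.47, 45.55 and 48.73 CPM with DMSO and at 33.05, 33.81 and 35.84 CPM with NUP-17d. The groups were far apart compared with the spread inside each, at 47.6 ± 1.76 and 34.2 ± 1.44 CPM (SD, n = 3 cultures each). The log2 fold change was -0.47 (SE 0.049, edgeR adjusted p = 1.17e-08), and 4.70% of all tested genes had a lower one. Under library totals, against a shift of 0.27 for all genes, it was still lower, at -0.21 (edgeR adjusted p = 0.00101).

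The secondary granule genes moved in different directions. Ngp encodes neutrophilic granule protein, a cathelin-related protein. It was at 709.6, 673.3 and 667.2 CPM with DMSO and at 746.7, 774.5 and 788.4 CPM with NUP-17d, with every NUP-17d culture above every DMSO culture. Its log2 fold change was 0.17 (SE 0.036, edgeR adjusted p = 0.000416). Camp encodes the precursor of the mouse cathelicidin peptide and belongs to the same wider family. It was at 62.72, 57.78 and 59.74 CPM with DMSO and at 50.91, 53.58 and 56.01 CPM with NUP-17d, with every NUP-17d culture below every DMSO culture. Its log2 fold change was -0.17 (SE 0.046, edgeR adjusted p = 0.00535), but it turned to 0.10 and did not pass under library totals (edgeR adjusted p = 0.0600).

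Ltf encodes lactoferrin, the iron-binding protein that defines the secondary granule. It was at 107.2, 101.3 and 98.69 CPM with DMSO and at 100.9, 109.4 and 105.6 CPM with NUP-17d, and the groups overlapped. The log2 fold change was 0.041 (95% CI -0.043 to 0.13, edgeR adjusted p = 0.469).

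Of the calprotectin genes, S100a8 was at 142.7, 140.2 and 135.6 CPM with DMSO and at 127.1, 130.3 and 149.7 CPM with NUP-17d. NUP-17d culture 3 was the highest of the 6 cultures and the other NUP-17d cultures were the lowest. The log2 fold change was -0.040 (95% CI -0.14 to 0.056, edgeR adjusted p = 0.540). Without NUP-17d culture 3 it was -0.12 and passed the test (edgeR adjusted p = 0.0248), the single call among the 10 genes that changed when 1 culture was left out. S100a9 was at 386.0, 377.4 and 339.0 CPM with DMSO and at 345.5, 372.6 and 378.1 CPM with NUP-17d. These groups overlapped, and the log2 fold change was -0.0079 (95% CI -0.096 to 0.080, edgeR adjusted p = 0.903).

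**Figure D2:**
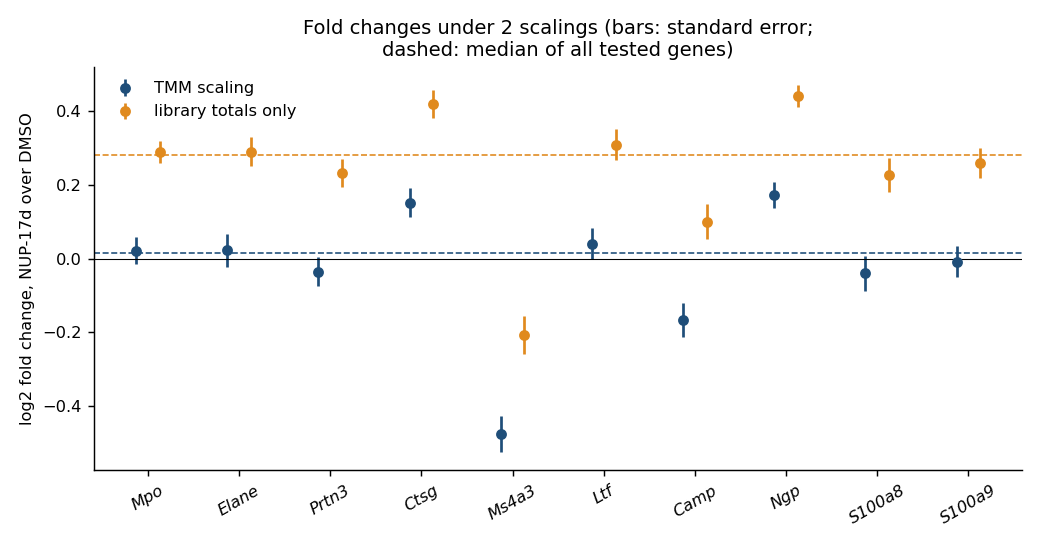
Log2 fold change, NUP-17d against DMSO, of each granule gene with TMM scaling and with library totals only, where bars are the standard error. Library totals move every gene up by about the shift of 0.27 seen in all genes, which leaves Ms4a3 as the single gene below 0.

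Under library totals 8 of the 10 genes were called higher, beside 68.7% of all tested genes, and 1 of the 10, Ms4a3, was called lower, beside 5.34%. The median of the 10 genes then was 0.27, beside 0.28 for all tested genes. Library totals move every gene up, so Ctsg and Ngp, which were above 0 with TMM, could not have turned. Ms4a3 could have turned and stayed below 0. Camp, Prtn3, S100a8 and S100a9 were below 0 with TMM and above 0 with library totals, where each still lay below the median of all tested genes.

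Ratios of counts within a culture do not depend on the scaling, since both genes share the library. The pairs were chosen with the values known and are given as a description. Ms4a3 had 0.0265 to 0.0274 counts per count of Mpo with DMSO and 0.0182 to 0.0198 with NUP-17d. Camp had 0.0858 to 0.0895 counts per count of Ngp with DMSO and 0.0682 to 0.0710 with NUP-17d. These differences were -0.50 and -0.34 on the log2 scale, and in neither pair did the groups overlap. Ltf relative to Ngp was 0.148 to 0.151 with DMSO and 0.134 to 0.141 with NUP-17d, again without overlap. Ltf itself did not pass the test and Ngp rose, so this ratio is not a separate fall of Ltf. Relative to Mpo, Ngp was 0.375 to 0.402 with DMSO and 0.412 to 0.455 with NUP-17d. Camp relative to Mpo was 0.0336 to 0.0355 and 0.0281 to 0.0314. Ctsg relative to Mpo was 0.107 to 0.109 with DMSO and 0.113 to 0.123 with NUP-17d. None of these ratios to Mpo overlapped between the groups.

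Other pairs held their proportions within the spread of the cultures. Elane relative to Mpo was 0.263 to 0.286 with DMSO and 0.267 to 0.288 with NUP-17d. Prtn3 relative to Mpo was 0.129 to 0.133 with DMSO and 0.121 to 0.131 with NUP-17d. S100a8 relative to S100a9 was 0.370 to 0.40 with DMSO and 0.350 to 0.396 with NUP-17d. In all 3 pairs the groups overlapped.

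**Figure D3:**
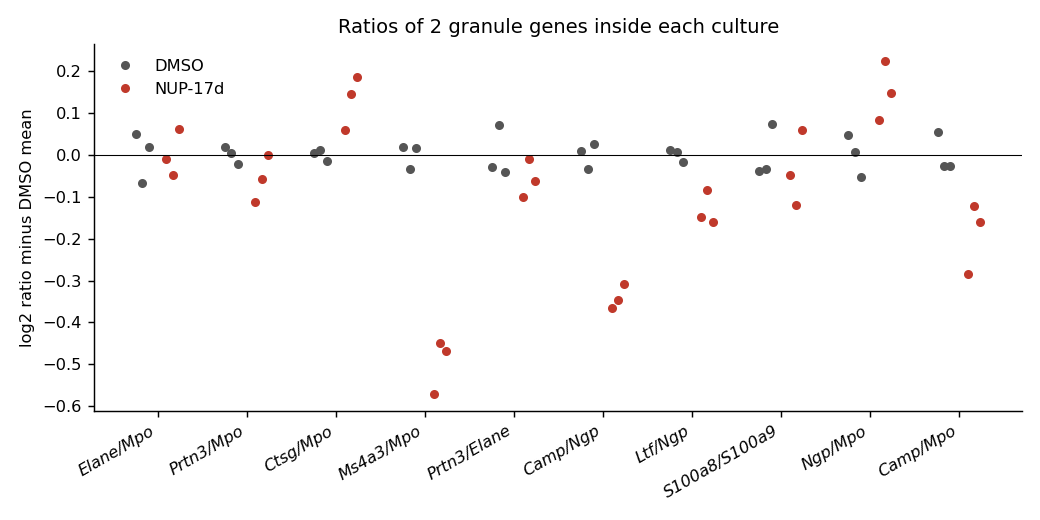
Ratios of expected counts between pairs of granule genes within each culture, on the log2 scale relative to the DMSO mean, where each point is a culture. Ms4a3/Mpo and Camp/Ngp lie lowest with NUP-17d, at mean differences of -0.50 and -0.34, and Elane/Mpo, Prtn3/Mpo and S100a8/S100a9 overlap between the groups.

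Levels of different genes can be compared only per transcript length, for which the deposited FPKM was divided by the TMM factor. With DMSO the order was S100a9 at 717 ± 48.9, Mpo at 675 ± 11.5, Ngp at 585 ± 19.4, Elane at 535 ± 30.5, S100a8 at 382 ± 9.83, Prtn3 at 236 ± 4.27, Ctsg at 190 ± 2.06, Camp at 104 ± 4.26, Ms4a3 at 47.7 ± 1.75 and Ltf at 36.9 ± 1.56 corrected FPKM (SD, n = 3 cultures). S100a9 and Mpo overlapped between cultures, and the other neighbours in the order did not. With NUP-17d, Ngp at 660 ± 17.9 overlapped with Mpo at 687 ± 26.0, and Ctsg at 211 ± 11.99 overlapped with Prtn3 at 231 ± 13.4. Ms4a3, at 34.4 ± 1.43, lay below Ltf, at 38.0 ± 1.55, so that these genes changed places at the foot of the order. Among all 17060 listed genes S100a9 ranked 68 and Mpo ranked 77 with DMSO.

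The genes lie on 6 chromosomes of the mouse assembly GRCm38 (mm10). Prtn3 and Elane are neighbours on chromosome 10, 3137 bases apart, S100a8 and S100a9 lie 22595 bases apart on chromosome 3, and Camp, Ngp and Ltf lie within 1.195 Mb on chromosome 9. Camp and Ngp, which moved in opposite directions, thus share a chromosome region. The 250 bases before the start of each gene were read from RefSeq on GRCm38.p6 for all 10 genes and searched on both strands for letters bound by factors of the granulocyte program. The letters, chosen with the sequences known, were AGGAAGT for ETS factors such as PU.1, TTNNGNAA for C/EBP factors and CAACNG for MYB. The promoters of the 4 called genes are given here so that the genes that fell and those that rose can be read side by side, 5′ to 3′ on the strand of the gene, with matches in capitals. They are chr19:11640852-11641101 (minus strand), chr9:109849457-109849706 (minus strand), chr14:56102575-56102824 (minus strand) and chr9:110419558-110419807 (plus strand).
Ms4a3: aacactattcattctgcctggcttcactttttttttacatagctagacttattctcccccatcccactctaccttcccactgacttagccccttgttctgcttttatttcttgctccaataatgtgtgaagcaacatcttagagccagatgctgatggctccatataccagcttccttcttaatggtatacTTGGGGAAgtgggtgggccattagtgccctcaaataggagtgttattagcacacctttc
Camp: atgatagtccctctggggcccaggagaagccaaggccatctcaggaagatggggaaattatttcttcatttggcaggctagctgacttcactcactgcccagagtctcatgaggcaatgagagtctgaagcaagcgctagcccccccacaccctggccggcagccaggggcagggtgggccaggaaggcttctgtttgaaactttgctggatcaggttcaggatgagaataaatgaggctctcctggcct
Ctsg: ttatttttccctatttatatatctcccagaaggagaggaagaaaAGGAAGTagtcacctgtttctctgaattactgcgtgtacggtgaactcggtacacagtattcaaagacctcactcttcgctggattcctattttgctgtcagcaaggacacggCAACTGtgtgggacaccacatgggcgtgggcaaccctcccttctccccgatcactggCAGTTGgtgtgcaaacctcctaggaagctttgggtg
Ngp: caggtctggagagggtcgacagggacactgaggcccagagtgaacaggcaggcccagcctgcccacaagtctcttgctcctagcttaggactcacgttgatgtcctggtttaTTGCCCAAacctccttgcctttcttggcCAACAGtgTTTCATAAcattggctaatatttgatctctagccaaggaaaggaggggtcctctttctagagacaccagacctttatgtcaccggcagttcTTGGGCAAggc

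Ms4a3 held 1 C/EBP match, 59 to 52 bases before its start, and neither of the other motifs. Camp held none of the 3 motifs. Ctsg held 1 ETS match, 206 to 200 bases before its start, and 2 MYB matches. Ngp held 3 C/EBP matches and 1 MYB match. The MYB letters were thus found in both genes that rose and in neither gene that fell, but also in Elane and Prtn3, which did not pass the test, and nothing is read from 4 genes.

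Over all 10 promoters the ETS letters were found in 5, those of Mpo, Elane, Prtn3, Ctsg and S100a8, and in 7.69% of the 32851 promoters of the same length. In the neighbours Elane and Prtn3 the ETS match was followed by a MYB match in the same order, at 84 and 51 bases before the start of Elane and at 94 and 56 bases before that of Prtn3. The C/EBP letters were found in 5, those of Ms4a3, Ltf, Ngp, S100a8 and S100a9, and in 36.8% of all promoters. The MYB letters were found in 4, those of Elane, Prtn3, Ctsg and Ngp, and in 29.3% of all promoters. Matches of different motifs did not overlap in these 10 promoters. A match shows only that the letters are present.

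The other genes of the same granules were described by lists, whose counts are to be read against the 16.4% of all tested genes that were called higher and the 18.9% called lower. Of 11 other primary granule genes, 10 were tested, 6 rose and 1 fell, with a median log2 fold change of 0.17 beside 0.014 for all tested genes. Cd63, a tetraspanin of the granule membrane and of lysosomes, rose from 97.7 ± 0.684 to 140 ± 8.16 CPM, a log2 fold change of 0.52 (SD, n = 3, edgeR adjusted p = 6.23e-11). Lyz2, lysozyme, rose by 0.18 on the log2 scale, although its counts were in part divided with Lyz1 and are uncertain. Cd63 serves lysosomes of many cell types, so its values are not particular to granulocytes.

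Of 12 other secondary granule genes 6 rose and 2 fell, with a median of 0.14. Slpi, a protease inhibitor, rose by 0.38, Tcn2, a transcobalamin, by 0.25 and Chil3, a chitinase-like lectin, by 0.21. Stom, stomatin, a membrane protein also abundant in red cells, fell from 732 ± 10.4 to 538 ± 15.5 CPM (SD, n = 3), a log2 fold change of -0.45 (edgeR adjusted p = 5.54e-11). The summed level of the list, of which Stom was a large part, was lower with NUP-17d, at 1806 to 1846 CPM against 1933 to 1962 CPM with DMSO, while its median gene was higher.

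Of 18 tertiary granule and mature neutrophil genes, 17 were tested, 7 rose and 2 fell, with a median of 0.056. Padi4, the enzyme that citrullinates histones in neutrophils, rose by 0.43. Slc11a1, a metal ion transporter, rose by 0.42 and the chemokine receptor gene Cxcr4 by 0.22. Such rises were not general in the list. Ly6g, at -0.26, Mmp9, at -0.068, Cxcr2, at 0.048, and Fpr2, at -0.087, did not pass the test. Pglyrp1 fell, at -0.22, but did not pass under library totals. Retnlg, a resistin-like gene of mature neutrophils, fell from 3.32 ± 0.228 to 1.42 ± 0.325 CPM (SD, n = 3), a log2 fold change of -1.22 (edgeR adjusted p = 1.06e-05) at a level far under that of the 10 granule genes.

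**Figure D4:**
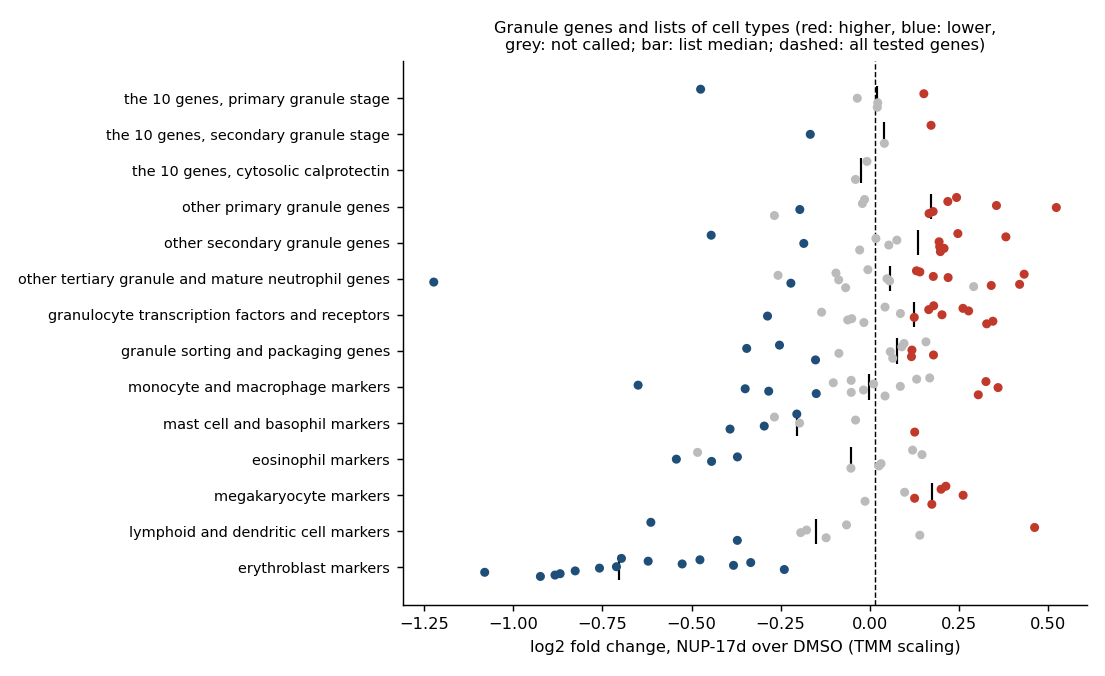
Log2 fold change with TMM scaling of each tested gene (points) in the granule genes, the related granulocyte lists and the marker lists of other cell types, with the median of each list. Erythroblast markers lie lowest, at a median of -0.70, and the medians of the granulocyte lists lie between -0.024 and 0.17.

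Of 15 transcription factors and cytokine receptors of granulocyte development, 8 rose and 1 fell, beside 16.4% and 18.9% of all tested genes, with a median of 0.12. Cebpa rose by 0.33 and Spi1, which encodes PU.1, by 0.12 on the log2 scale. Csf3r, the receptor of granulocyte colony-stimulating factor, rose by 0.28 and Csf2rb, the common beta chain of the GM-CSF, IL-3 and IL-5 receptors, by 0.26. Cebpe, at -0.062, and Gfi1, at -0.051, did not pass the test (edgeR adjusted p = 0.628 and 0.641). Runx1 fell, at -0.29, but was at -0.019 and did not pass under library totals.

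Of 12 genes listed for sorting and packaging of granule contents, 3 rose and 3 fell, beside the same 16.4% and 18.9%. The list also held genes with other roles, among them Ctsc and Hax1. Ctsc, the dipeptidyl peptidase that activates the serine proteases encoded by Elane, Prtn3 and Ctsg, fell, at -0.35 (edgeR adjusted p = 1.86e-06), but was at -0.079 and did not pass under library totals. Srgn, the proteoglycan core that holds proteases in the granule, fell, at -0.15, whereas it rose, at 0.11, under library totals. Hax1, a mitochondrial protein needed for neutrophil survival, fell, at -0.25, whereas it was at 0.014 under library totals and did not pass. Nbeal2, which is needed for granule formation, rose by 0.18.

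Markers of other cells that such a culture can hold moved as well, and their part in the values of the granule genes was not tested. Their counts, too, stand beside 16.4% of all tested genes higher and 18.9% lower. Of 16 monocyte and macrophage markers 3 rose and 4 fell, with summed levels of 2536 to 2701 CPM with DMSO and 2583 to 2772 CPM with NUP-17d. Cd68 rose by 0.30, and Ccr2 fell, at -0.28, but did not pass under library totals. Of 11 mast cell and basophil markers, 7 were tested, 1 rose and 3 fell, with summed levels of 238 to 255 CPM and 210 to 217 CPM. Prss34, at -0.30, and Mcpt8, at -0.39, fell but did not pass under library totals, and the mast cell genes Mcpt4 and Tpsab1 had 0 counts in all cultures.

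Of 9 eosinophil markers 3 fell and 6 did not pass the test, with summed levels of 223 to 252 CPM with DMSO and 215 to 228 CPM with NUP-17d. Ear1 and Ear2, ribonucleases of eosinophil granules, fell, at -0.44 and -0.54, as did Ear6. The expected counts of these genes were in part not whole, so fractional reads had been assigned to them and their values are uncertain. Epx, at -0.053, Prg2, at 0.026, and Prg3, at 0.032, were among those that did not pass. Of 7 megakaryocyte markers 5 rose and 2 did not pass, with summed levels of 453 to 503 CPM and 523 to 542 CPM, among them Gp1ba, at 0.26, and Vwf, at 0.21. Of 9 lymphoid and dendritic cell markers, 8 were tested, 1 rose and 2 fell, with summed levels of 812 to 842 CPM and 548 to 609 CPM. Most of that sum was Cd74, the invariant chain of antigen presentation, so the summed level does not describe the other markers. Cd74 fell from 751 ± 13.1 to 491 ± 33.7 CPM (SD, n = 3), a log2 fold change of -0.61. Siglech, a plasmacytoid dendritic cell marker, rose by 0.46.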

How the data were processed

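The deposited table of each culture held, per gene, an expected count, the authors' estimated number of reads, not normalized, and an FPKM value, the authors' count per transcript length and library total. Genes without a row in a culture were taken as 0. The submitters' processing notes name mm10. The aligner and counter are not given in the sources used here. The labels describe oligo(dT) selection, random priming and a DNBseq instrument, whereas the methods name a stranded Illumina kit. Between 27.8% and 28.5% of the expected counts were not whole and were rounded. Totals were 20076409 to 20419018 per culture, and genes with few counts are measured least precisely.

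Genes were kept by filterByExpr, scaled by TMM and compared with the quasi-likelihood test of edgeR 4.0.16 (R 4.3.3), with Benjamini-Hochberg adjustment over 12306 genes and a threshold of 0.05. It called 4346 genes, 2019 higher and 2327 lower. The common biological variation coefficient over all tested genes was 2.95%. Corrected FPKM is the deposited FPKM divided by the TMM factor. Alternatives were DESeq2 1.42.0, library totals, hemoglobin genes removed, all genes kept whatever their counts, limma 3.58.1 with log2(FPKM + 1) or with a pseudocount of 0.1, a replicate block, and each culture left out. limma on corrected FPKM was added after seeing the data. The code was tested on simulated data.

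The 10 genes and all lists were chosen with earlier results of these data known. All 10 are named. From each list of granulocyte genes the up to 4 tested genes with the lowest p-values are named, plus Cebpa, Cebpe, Gfi1, Spi1, Csf3r, Ctsc and Srgn. From each list of other cell types the up to 2 with the lowest p-values are named, for erythroblasts Hbb-bt (-0.92), and those at 0 in all cultures. A few genes that meet these criteria are not reported here. Promoters came from RefSeq on GRCm38.p6. Cultures of a group differed beyond sampling noise (chi-square per degree of freedom of 1.80 to 4.41) and were counted separately.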

Additional observations from a re-analysis of the deposited data

How the results depend on the processing

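Ms4a3, Ctsg and Ngp kept their direction and their call under every alternative run, including each culture left out. The fits without a correction for composition move genes up, so in them Ctsg and Ngp could not have changed direction. Camp was called lower under all but 4, which are library totals and the 3 uncorrected FPKM fits. These turned its log2 fold change to 0.10, and the FPKM fits called it higher. In the same fits Prtn3 was at 0.23, S100a8 at 0.23 and S100a9 at 0.26 to 0.27. The number of granule genes called was 4 with TMM, DESeq2, no filter, hemoglobin genes removed and corrected FPKM, 9 with library totals (8 higher, 1 lower) and 10 (9 higher, 1 lower) in each uncorrected FPKM fit, and 4 to 5 with each culture left out. The counts over all genes, beside which these are to be read, come from different numbers of genes. Library totals called 9115 of 12306 (8458 higher, 657 lower). Of 10543 genes, limma called 8494 (7895 and 599) on log2(FPKM + 1) and 8480 (7880 and 600) on log2(FPKM + 0.1). Without a filter it called 8652 of 17060 (7997 and 655). DESeq2 called 2970 of 17060 genes fitted, 1161 of them higher. Leaving out 1 culture gave 3713 to 4008 calls among 12415 to 12462 genes. It moved Elane between -0.029 and 0.078, S100a8 between -0.12 and 0.0049 and S100a9 between -0.064 and 0.031, all within the uncalled range save S100a8 without NUP-17d culture 3. The cause of these moves was not tested, beyond the missing correction for composition in library totals and FPKM. With the culture number as a replicate block, 4543 of 12306 genes and 4 granule genes were called. Deviations of same-numbered cultures correlated at 0.0658, 0.00624 and 0.00485. Differently numbered cultures were not set beside them, so these values cannot decide whether the numbers pair the cultures. The labels do not say that they do, and the main test used no pairing. With 3 cultures per group an exact permutation test of a single value cannot go below 0.1.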
